A study of Mus musculus with 6 samples.

Results

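The 27 genes described here encode peroxins, peroxisomal oxidation enzymes, transporters of the peroxisomal membrane, catalase and enzymes of ether lipid synthesis. They are a list of genes named for their known roles, by a rule that takes no measured value. The list was nevertheless chosen with earlier results of these data known. Their symbols were looked up in a table of 55492 mouse genes, where all 27 were found. RNA was sequenced from cells that had been purified with O4 microbeads from the whole brains of mice at postnatal day 16, in 3 WT and 3 Npc1-/- mice. The Npc1-/- mice were homozygous for the Npc1nih allele and were F1 hybrids of heterozygous parents on BALB/cJ and C57BL6/J backgrounds. The allele is null, so that Npc1 function was lost in every cell and not in oligodendrocytes alone. NPC1 is the lysosomal protein that releases cholesterol from lysosomes, and its loss causes Niemann-Pick disease type C. The comparison asks whether the RNA of the peroxisomal programme differed between the genotypes in this cell fraction.

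Peroxisomes are small organelles bounded by a single membrane. Peroxins insert their membrane proteins, import folded enzymes into their interior (the matrix) and divide them, and the imported enzymes shorten very long and branched fatty acids, break down hydrogen peroxide and carry out the opening steps of ether lipid synthesis. In oligodendrocytes, the cells that make myelin, plasmalogens are a major class of these ether lipids, and inherited defects of peroxisomes damage the white matter of the brain.

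Most matrix enzymes carry a type 1 signal at the very end of the protein, which the receptor PEX5 recognises, and a few carry a type 2 signal near the start, which PEX7 recognises. The ends of the coding sequences of 7 such enzymes on the list are shown because they are the DNA that encodes this signal, and thus the feature that ties the enzymes on the list to the import genes on it. Each run holds the last 30 coding bases (GRCm38, GENCODE M21, within 1 exon), with the 3 codons before the stop codon in capitals.
Cat (chr2:103454756-103454785, minus strand): atggctgcgaagggaaaaGCTAACCTGtaa
Acox3 (chr5:35612105-35612134, plus strand): gtagccgacaggctaaagTCCCAGCTGtag
Scp2 (chr4:108044750-108044779, minus strand): cagcttcagccgggcaaaGCTAAGCTGtga
Ech1 (chr7:28832079-28832108, plus strand): acaaaaagcatcaccttcTCCAAGCTCtga
Acot8 (chr2:164792892-164792921, minus strand): aagcctcaggtgtcagagAGTAAGCTAtag
Amacr (chr15:10995220-10995249, plus strand): gaaagtgataagctaaaaGCCAATCTCtga
Gnpat (chr8:124889286-124889315, plus strand): ataggaaaaccagccactGCAAAACTAtaa
In each of the 7 runs the last capital codon begins with CT. The capital codons before it vary more, although some are shared, such as AAG in Scp2, Ech1 and Acot8.

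Levels are given as scaled TPM, which is the TPM deposited by the authors (transcript abundance per length, at the same total in every sample) divided by a size factor per mouse. Differences are log2 fold changes of Npc1-/- over WT from limma, on log2(scaled TPM + 0.5), with a 95% interval, and a gene was called when its Benjamini-Hochberg adjusted p over all 15245 genes tested was below 0.05 and its log2 fold change was at least 0.1 in size. Steps in the low values gave a depth of 40250000 to 50250000 fragments per mouse, so that 1 fragment on a transcript of 1000 effective bases was worth 0.0278 to 0.0371 TPM. Npc1 itself lay between 41.1 and 45.5 scaled TPM in WT and between 3.72 and 5.17 in Npc1-/- mice. Markers of myelinating oligodendrocytes summed to 171668 to 242701 scaled TPM in WT and 217228 to 431310 in Npc1-/-, and those of oligodendrocyte progenitors to 74.8 to 81.9 and 56.0 to 83.6. Other cells were present too, and none of their defining markers was at 0. Of the markers of microglia, 4 of 5 were lower in Npc1-/- without overlap between genotypes (summed level 90.2 to 149 against 39.2 to 65.9). So were 4 of 4 endothelial markers (418 to 606 against 299 to 356) and 4 of 5 astrocyte markers (267 to 337 against 231 to 409, with Gfap higher). Over all genes tested, 14.2% were lower without overlap, and of these microglial, endothelial and astrocyte markers only Tmem119 was called. Markers of neurons summed to 66.0 to 96.9 in WT and 101 to 154 in Npc1-/-. Of the 7 neuronal markers, 2 (Nefl and Nefm) were higher without overlap, against 13.3% of all genes, and both were called. The other neuronal markers overlapped. Npc1-/- replicate 3 was the only library with Xist above 0.01 scaled TPM and with the 4 Y-linked genes examined at 0. The part of these differences in the results for the 27 genes was not tested.

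None of the 27 genes was called in Npc1-/- cells in limma, against 0.813% of all genes tested (124 of 15245; 0.4% higher and 0.413% lower in Npc1-/-). At an unadjusted p below 0.05 in limma there was 1 of the 27 (3.70%), Pex16, against 22.2% of all genes. The genotypes did not overlap for 5 of the 27 (18.5%), against 27.5% of all genes. Of these, Pex14, Pex16, Acaa1a and Gnpat were higher in all 3 Npc1-/- mice and Pex26 was lower. This split of 4 higher and 1 lower held with size factors and not on the deposited TPM, where 7 of the 27 (25.9%, against 28.2% of all genes) did not overlap and all 7 were lower (Pex7, Pex26, Pex11a, Abcd2, Scp2, Ech1 and Phyh).

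The intervals bounded how large a difference could have gone unseen on the scale used, log2(scaled TPM + 0.5) with size factors. The added 0.5 shrinks the fold of the lowest genes, such as Pex11g at 0.706 scaled TPM in WT. Without size factors all 27 log2 fold changes were below 0, with a median of -0.3681, so the bound rests on the scaling. All 27 intervals lay within 1 of no change on the log2 scale, that is within 2-fold, against 83.2% of all genes tested. For 23 of the 27 (85.2%) the interval lay within 0.5, against 41.3% of all genes. The median log2 fold change of the 27 was -0.01 (range -0.30 to 0.35), with 13 above 0 and 14 below, and the median over all genes tested was 0.01. Within a genotype these genes varied little from mouse to mouse, with a median SD of 0.12 on the log2 scale against 0.18 over all genes, and at 14.9 scaled TPM their median level in WT was above the 7.66 of all genes. Among called genes the smallest log2 fold change was 0.51 in size, larger than that of any of the 27. In bulk RNA of this kind, fewer cells of a type and less RNA per cell cannot be told apart.

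**Figure D1:**
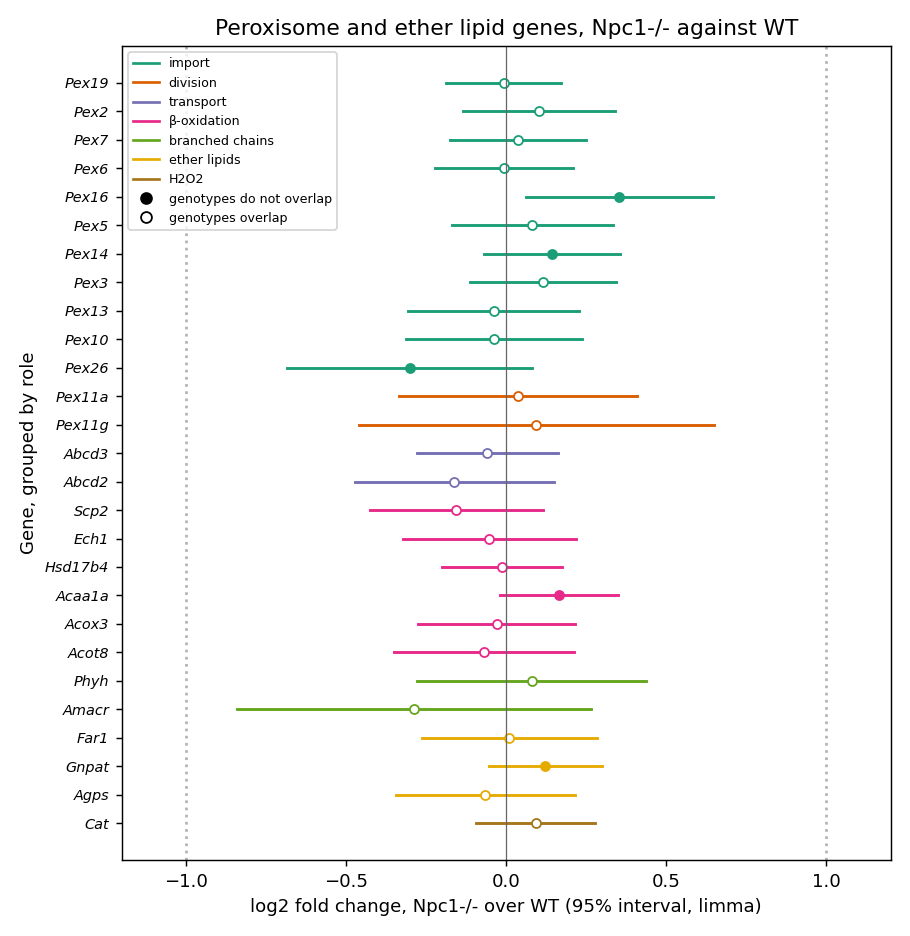
Log2 fold change of Npc1-/- over WT (points) with its 95% limma interval (lines) for the 27 genes, grouped by role, 3 mice per genotype; filled points mark genes whose genotypes did not overlap, and the dotted lines mark a 2-fold difference. All intervals stay between the dotted lines, and that of Pex16 alone lies wholly on one side of 0.

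**Figure D2:**
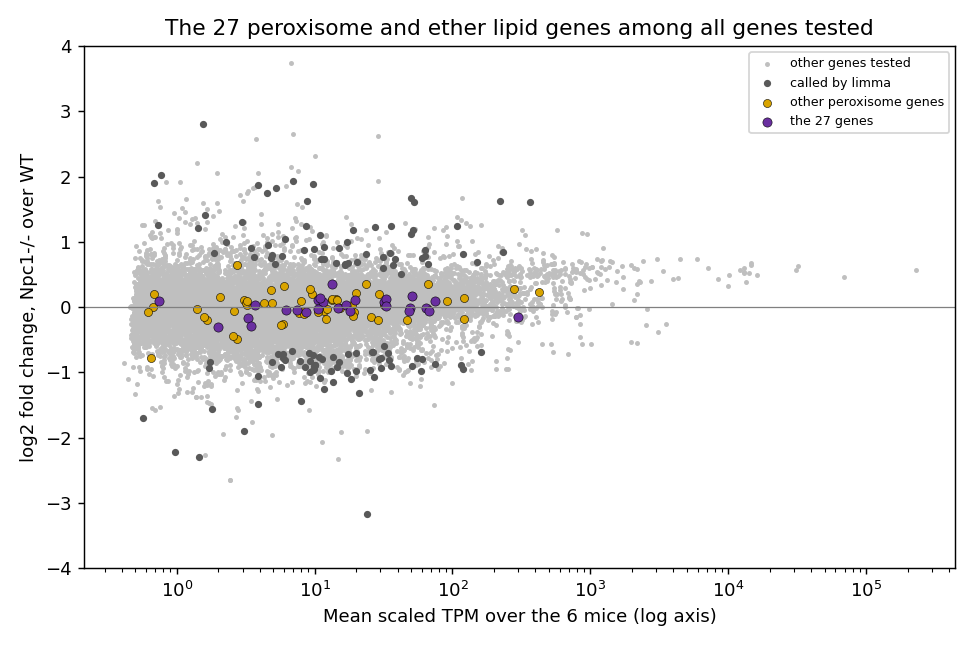
Log2 fold change of Npc1-/- over WT against mean scaled TPM (log axis) for the 15245 genes tested, with the 27 genes in purple, the 56 other peroxisome genes tested in yellow and the 124 called genes in dark grey. The 27 genes lie between -0.30 and 0.35, and the lower and upper quartiles over all genes tested are -0.18 and 0.18.

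The 11 import genes made up the largest group, with WT levels from 2.26 to 49.1 scaled TPM. PEX19, the chaperone that picks up newly made peroxisomal membrane proteins, had the highest RNA level of them. Pex19 was at 47.30, 51.37 and 48.50 scaled TPM in the 3 WT mice and at 48.96, 49.00 and 48.35 in the 3 Npc1-/- mice. The Npc1-/- values lay inside the WT range, and the log2 fold change was -0.01 ± 0.08 (SE; interval -0.19 to 0.17; limma adjusted p = 0.965).

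PEX16 and PEX3 are the membrane proteins with which PEX19 delivers its cargo. Pex16 was at 10.35, 12.94 and 11.51 scaled TPM in WT and at 13.54, 14.40 and 16.94 in Npc1-/-. All 3 Npc1-/- mice were above all 3 WT mice (11.6 ± 1.30 and 15.0 ± 1.77, mean ± SD, n = 3), and the log2 fold change of 0.35 ± 0.12 (SE) was the largest of the 27 genes in size. Its interval, 0.06 to 0.65, corresponds to a fold of 1.04 to 1.56, and its limma adjusted p of 0.155 did not pass the threshold. The direction depended on the scaling: on the deposited TPM without size factors the log2 fold change of Pex16 was -0.0068, while the median over all genes moved to -0.326. Pex3 overlapped between genotypes, with a log2 fold change of 0.12 (adjusted p = 0.545, limma).

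PEX14 and PEX13 form the docking site for loaded receptors at the membrane. Pex14 was at 10.98, 10.44 and 9.66 scaled TPM in WT and at 11.65, 11.21 and 11.57 in Npc1-/-. The genotypes did not overlap (10.4 ± 0.664 and 11.5 ± 0.236, mean ± SD, n = 3), and the log2 fold change was 0.14 ± 0.09 (SE; interval -0.07 to 0.35; limma adjusted p = 0.410). Pex13 differed by -0.04 on the log2 scale, with overlap (limma adjusted p = 0.880).

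PEX26 anchors at the membrane the motor that holds PEX6 and pulls used receptors back out. Pex26 had the lowest level of the import genes, at 2.05, 2.83 and 1.90 scaled TPM in WT and 1.76, 1.71 and 1.68 in Npc1-/-. The 3 Npc1-/- values were close together and all below WT (1.72 ± 0.0416 against 2.26 ± 0.499, mean ± SD, n = 3), with WT replicate 2 standing highest. The log2 fold change of -0.30 ± 0.16 (SE) had an interval of -0.68 to 0.08 and a limma adjusted p of 0.332. Without WT replicate 2 the log2 fold change of Pex26 was -0.16 (limma adjusted p = 0.672, in a range of 0.185 to 0.672 over the alternatives). Pex6, the motor subunit on the list, differed by -0.01 on the log2 scale.

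The receptors and the ubiquitin ligase that recycles them overlapped between genotypes throughout. Pex5, the type 1 receptor, had a log2 fold change of 0.08 (interval -0.17 to 0.33), and Pex7, the type 2 receptor, one of 0.04 (interval -0.17 to 0.25). Pex2 and Pex10, RING finger subunits of the ligase, had log2 fold changes of 0.10 and -0.04. Over the 11 import genes 6 log2 fold changes were above 0 and 5 below, with a median of 0.04. Their summed level was 157, 161 and 159 scaled TPM in WT and 164, 168 and 165 in Npc1-/-, so that the sums did not overlap although most of the single genes did. On the deposited TPM the same sums came to 203, 179 and 165 for WT mice and to 181, 144 and 120 for Npc1-/- mice, which overlapped and were lower in the mean in Npc1-/-.

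Pex11a and Pex11g belong to the PEX11 family, which elongates peroxisomes before they divide. Pex11a was at 3.94, 3.25 and 3.72 scaled TPM in WT and at 3.01, 3.86 and 4.46 in Npc1-/-, with the Npc1-/- mice spread over the whole WT range and beyond it. Pex11g had the lowest level of the 27 genes, at 1.05, 0.60 and 0.47 scaled TPM in WT and 0.93, 0.81 and 0.58 in Npc1-/-. In both genotypes replicate 1 was highest and replicate 3 lowest for Pex11g. At this level the interval of Pex11g was wide, -0.46 to 0.65 on the log2 scale around 0.09 (limma adjusted p = 0.862).

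The transporters ABCD2 and ABCD3 carry activated fatty acids across the peroxisomal membrane. Abcd3, also used as a marker of the membrane, was at 47.88, 52.72 and 48.17 scaled TPM in WT and 52.19, 44.89 and 45.76 in Npc1-/-. Abcd2, which handles very long chains, was lower at 3.88, 3.61 and 3.03 scaled TPM in WT and 2.80, 3.15 and 3.26 in Npc1-/-. The genotypes overlapped for both, and their log2 fold changes were -0.06 and -0.16 (limma adjusted p = 0.765 and 0.530).

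**Figure D3:**
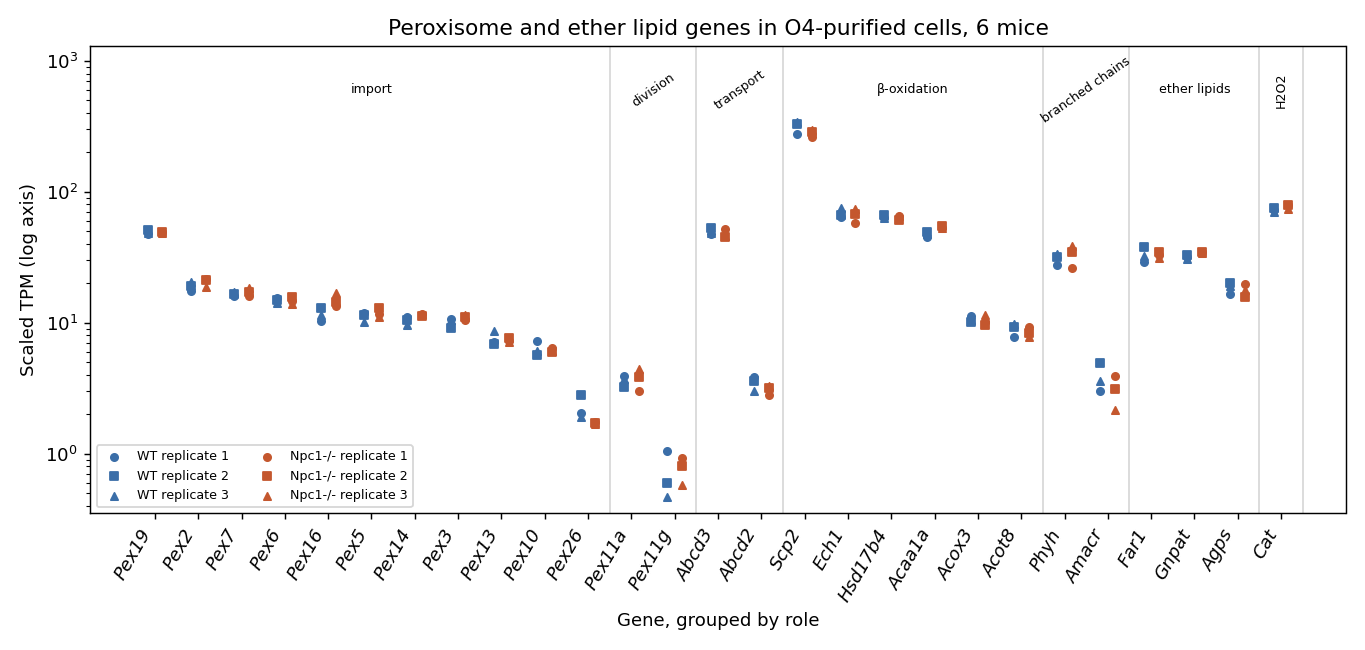
Scaled TPM (log axis) of the 27 genes in each of the 6 mice, grouped by role and ordered by WT mean within a role; blue symbols are WT, orange symbols Npc1-/-, and the shape gives the replicate number. The levels run from Pex11g, at most 1.05 in every mouse, to Scp2, above 262 in every mouse, and for most genes the colours overlap.

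Among the 6 genes assigned to peroxisomal β-oxidation, Scp2 stood far above the rest. It encodes both the thiolase for branched chains, SCPx, and the smaller sterol carrier protein 2, which binds sterols and other lipids, and gene level values do not separate these products. Scp2 was at 276.39, 327.19 and 340.08 scaled TPM in WT and at 262.27, 287.27 and 294.92 in Npc1-/-. Replicate 1 was lowest in each genotype, the ranges overlapped (315 ± 33.7 and 281 ± 17.1, mean ± SD, n = 3), and the log2 fold change was -0.16 ± 0.11 (SE; interval -0.43 to 0.11; limma adjusted p = 0.482). Scp2 took 32.0 to 35.8% of the summed level of the 27 genes in WT and 29.9 to 32.0% in Npc1-/-. With quantile normalization in place of size factors Scp2 was called, at -0.39 on the log2 scale and an adjusted p of 0.048 in limma, and under the other 16 alternatives its adjusted p ran from 0.0526 to 0.722.

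ACAA1A is the thiolase that ends each round of β-oxidation of straight chains, and one of the few matrix enzymes that use PEX7. Acaa1a was at 45.19, 49.59 and 47.86 scaled TPM in WT and at 52.56, 54.66 and 52.79 in Npc1-/-. The genotypes did not overlap (47.5 ± 2.22 and 53.3 ± 1.15, mean ± SD, n = 3), with a log2 fold change of 0.17 (interval -0.02 to 0.35; limma adjusted p = 0.271). Myd88 overlaps Acaa1a on the other strand and was lower in Npc1-/- (6.01 and 4.03 scaled TPM in the mean), and whether the counting used strand is not given in the sources used here.

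The other 4 genes of the group overlapped between genotypes. Acot8, a thioesterase that releases shortened acids from coenzyme A, had the lowest level of the group, at 7.78, 9.21 and 9.81 scaled TPM in WT and 9.20, 8.35 and 7.84 in Npc1-/-. Its 2 sets of values covered nearly the same range, and the log2 fold change was -0.07 (limma adjusted p = 0.787). Hsd17b4, the bifunctional enzyme of the middle steps, had the smallest difference of the 4, with a log2 fold change of -0.01 (interval -0.20 to 0.17). Acox3, an oxidase of branched chains, and Ech1, a dienoyl-CoA isomerase found in peroxisomes and mitochondria, differed by -0.03 and -0.05.

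Phyh and Amacr handle methyl-branched chains: PHYH starts the α-oxidation of phytanic acid, and AMACR flips branched acyl-CoA into the form that β-oxidation accepts. Phyh was at 27.79, 31.69 and 33.68 scaled TPM in WT and at 26.33, 34.78 and 38.27 in Npc1-/-. In both genotypes replicate 1 was lowest and replicate 3 highest, and the Npc1-/- mice spread to either side of the WT mice. Amacr was at 2.99, 4.89 and 3.62 scaled TPM in WT and at 3.95, 3.10 and 2.16 in Npc1-/-. Its interval was wide, like that of Pex11g, and ran from -0.84 to 0.27 on the log2 scale around -0.29 (limma adjusted p = 0.531), so a moderate difference in Amacr was not detectable with these mice.

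Ether lipid synthesis needs GNPAT, which puts the opening acyl chain on dihydroxyacetone phosphate, AGPS, which swaps it for the ether-linked alkyl chain, and FAR1, which supplies the fatty alcohol for that swap. Gnpat was at 31.78, 32.75 and 30.70 scaled TPM in WT and at 34.66, 34.82 and 34.28 in Npc1-/-. All 3 Npc1-/- mice were above all 3 WT mice, with little spread (31.7 ± 1.03 and 34.6 ± 0.277, mean ± SD, n = 3), and the log2 fold change was 0.12 ± 0.07 (SE; interval -0.05 to 0.30; limma adjusted p = 0.397). Gnpat overlaps 2810004N23Rik on the other strand, which was at 11.8 and 11.6 scaled TPM in the means of WT and Npc1-/-.

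Far1 and Agps overlapped between genotypes. Far1 was at 28.87, 38.02 and 32.13 scaled TPM in WT and at 32.94, 34.92 and 31.31 in Npc1-/-, all 3 of them inside the WT range. Its log2 fold change was 0.01 (interval -0.26 to 0.28; limma adjusted p = 0.971). Agps had the lowest level of the 3, at 16.62, 20.20 and 19.03 scaled TPM in WT and 19.82, 15.79 and 17.75 in Npc1-/-, with a log2 fold change of -0.07 (limma adjusted p = 0.800). The summed level of the 3 genes was 77.3, 91.0 and 81.9 scaled TPM in WT and 87.4, 85.5 and 83.3 in Npc1-/-.

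Catalase, which breaks down the hydrogen peroxide that the oxidases make, was at 73.00, 74.70 and 69.97 scaled TPM in WT and at 79.30, 79.04 and 73.89 in Npc1-/-. Npc1-/- replicate 3 fell among the WT mice and the other 2 lay above them. The log2 fold change of Cat was 0.09 ± 0.08 (SE; interval -0.09 to 0.28; limma adjusted p = 0.551).

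By import route, the 8 genes on the list whose enzymes use PEX5 had log2 fold changes from -0.29 to 0.12 with a median of -0.04, and 2 were above 0. The 3 whose enzymes use PEX7 (Acaa1a, Phyh and Agps) ran from -0.07 to 0.17 with a median of 0.08, and 2 were above 0. No difference between the routes was tested. The summed level of all 27 genes was 862, 953 and 950 scaled TPM in WT and 878, 911 and 922 in Npc1-/-, with the Npc1-/- mice inside the WT range. Without Scp2 the sums were 586, 626 and 610 against 616, 624 and 628.

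The list left out other genes of the organelle, and 61 of these were examined beside it, of which 56 passed the filter of a mean TPM of at least 0.5. The 5 under it were Slc27a2, Acot3, Acot4, Pparg and Ppargc1b. None of the 56 was called in limma, 8 (14.3%) had an unadjusted p below 0.05, and 13 (23.2%) did not overlap between genotypes, 7 of them higher (12.5%) and 6 lower (10.7%), against 13.3% and 14.2% of all genes tested. Their median log2 fold change was 0.03. For 33 of the 56 (58.9%) the interval lay within 0.5 of no change and for 54 (96.4%) within 1, so the bound on these genes was looser than on the 27.

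The regulators include the nuclear receptors that control such genes. PPARα, which switches on peroxisomal oxidation genes in liver, was encoded by a transcript near the filter. Ppara was at 0.82, 0.89 and 1.14 scaled TPM in WT and at 0.33, 0.21 and 0.52 in Npc1-/-. Its mean passed the filter through the WT mice alone, with a deposited TPM of 0.99 to 1.18 in WT and 0.18 to 0.38 in Npc1-/-, so the filter favoured a difference in this direction. The log2 fold change was -0.77 ± 0.21 (SE; interval -1.27 to -0.28), and the limma adjusted p of 0.0949 did not pass the threshold. The added 0.5 shrinks the fold of so low a gene. Since the filter favoured its direction, Ppara is left out of the summary of regulators that follows. The other regulators tested, Ppard (-0.20), Ppargc1a (-0.15) and Rxra (-0.27), had log2 fold changes below 0. Of these only Ppard did not overlap, as did 27.5% of all genes tested, and its limma adjusted p was 0.292. The regulators under the filter, Pparg and Ppargc1b, overlapped between genotypes. Pparg was higher in the mean in Npc1-/- (0.596 against 0.344 scaled TPM) and Ppargc1b lower (0.347 against 0.435).

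PPAR receptors pair with retinoid X receptors on repeats of AGGTCA. RefSeq promoters (GRCm38.p6, 250 bases before to 50 after the start) were available for 22 of the 27 genes, and AGGTCA was found on either strand in those of Cat, Pex11g, Phyh and Scp2, that is in 4 of 22 (18.2%) against 18.1% of 27025 genes. The repeat AGGTCANAGGTCA was in none of the 22 and in 13 of 27025 genes (0.0481%). CCAAT was in 8 of 22 (36.4%) against 41.1% of all genes. The bases before the start of Scp2 are shown as the promoter of the gene with the highest level on the list, with AGGTCA in capitals. This RefSeq start lies inside the GENCODE span of Scp2 (chr4:108043839-108144998), which has 9 transcripts, so it is not the farthest upstream start of the gene.
Scp2 (chr4:108118548-108118797, minus strand): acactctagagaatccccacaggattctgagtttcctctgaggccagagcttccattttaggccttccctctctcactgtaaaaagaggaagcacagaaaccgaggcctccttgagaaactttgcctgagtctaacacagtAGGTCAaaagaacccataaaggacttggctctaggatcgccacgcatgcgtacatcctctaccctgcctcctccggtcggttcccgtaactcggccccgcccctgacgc
These matches describe letters in a window, not binding.

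The ether lipid genes beyond the list included Agmo and Far2, which were among the 3 largest differences without overlap. AGMO, the oxygenase that cleaves the ether bond of alkylglycerols, had a low RNA level: Agmo was at 2.03, 1.89 and 2.04 scaled TPM in WT and at 2.33, 3.46 and 4.73 in Npc1-/-. The WT mice were close together and the Npc1-/- mice spread upward from just above them, with a log2 fold change of 0.65 ± 0.22 (SE; interval 0.12 to 1.17; limma adjusted p = 0.149). FAR2 is another fatty acyl-CoA reductase beside FAR1. Far2 was at 3.94, 3.15 and 2.80 scaled TPM in WT and at 2.27, 2.08 and 2.19 in Npc1-/-, without overlap, at -0.49 ± 0.15 (SE; interval -0.84 to -0.15; limma adjusted p = 0.111). A difference in response between Far1 and Far2 was not tested.

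Tmem189 was chosen for mention after its values were seen, since it had the lowest adjusted p of the 61. It encodes the desaturase PEDS1, which makes the vinyl ether bond that turns an alkyl lipid into a plasmalogen. Tmem189 was at 56.11, 57.78 and 60.12 scaled TPM in WT and at 71.33, 77.86 and 73.01 in Npc1-/-. The gap between the genotypes was wider than the spread within either (58.0 ± 2.02 and 74.1 ± 3.39, mean ± SD, n = 3). The log2 fold change was 0.35 ± 0.08 (SE; interval 0.16 to 0.54), and the limma adjusted p was 0.0691, ranging from 0.0313 to 0.938 over the alternatives. On the deposited TPM without size factors it was -0.0212. Gm20431 overlaps Tmem189 on the same strand, at 2.75 scaled TPM in WT and 4.05 in Npc1-/-, and Cebpb overlaps it on the other strand, at 15.3 and 9.13.

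The other 6 ether lipid genes examined (Tmem86a, Tmem86b, Chpt1, Cept1, Selenoi and Pla2g6) overlapped between genotypes. Over all 9 ether lipid genes beyond the list, 3 did not overlap (33.3%, against 27.5% of all genes tested) and 4 of 9 log2 fold changes were above 0, so the differences pointed both ways.

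**Figure D4:**
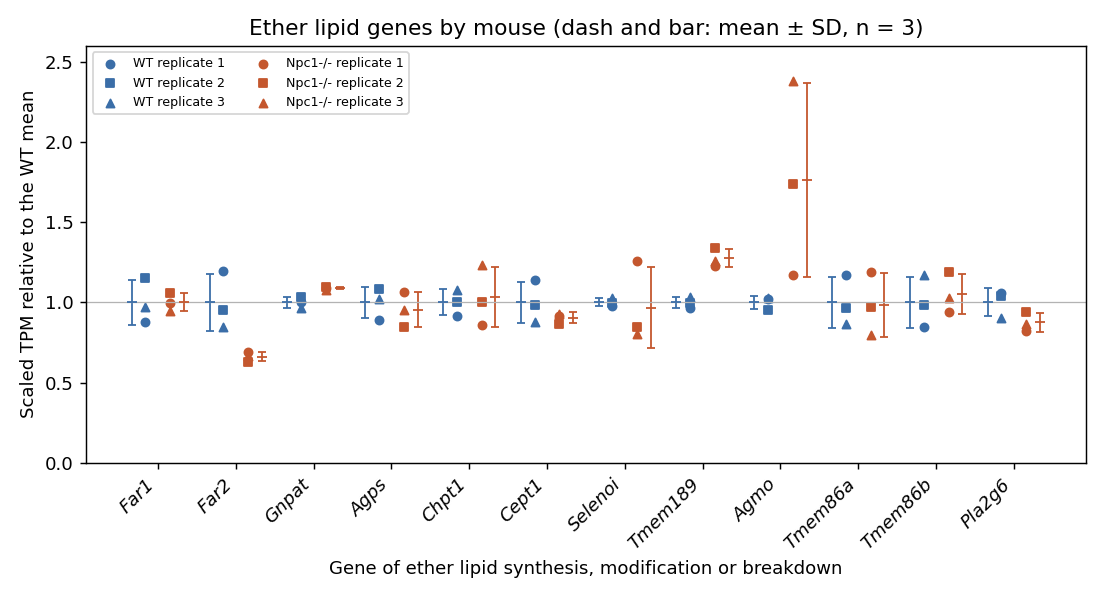
Scaled TPM of 12 ether lipid genes in each mouse divided by the WT mean of the gene (a value of 1 is the grey line), with mean ± SD (n = 3) as dash and bar; Far1, Gnpat and Agps belong to the list of 27. Gnpat, Tmem189 and Agmo lie above all WT mice and Far2 lies below them, and the other genes overlap.

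Further genes with no overlap included Gdap1, Hsdl2, Nudt7, Nudt19 and Hacl1, which were higher in Npc1-/-, and Eci2, Ephx2 and Ppard, which were lower. HACL1, which follows PHYH in α-oxidation, was higher in RNA by 0.28 on the log2 scale (interval 0.04 to 0.52; limma adjusted p = 0.161). Of the 16 genes of straight-chain and side-chain oxidation tested, 12 had a log2 fold change above 0, with a median of 0.08, and none was called. Over all 56 other peroxisome genes tested 30 (53.6%) were above 0, and the median over all genes tested was 0.01. The signs rest on the scaling, since on the deposited TPM the median of the other peroxisome genes was -0.2861.

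Without Npc1-/- replicate 3, the library with Xist, none of the 27 was called, against 477 of the 15245 genes tested. In that setting 7 of the 27 (25.9%) did not overlap, against 40.7% of all genes.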

How the data were processed

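RNA was from O4-purified cells of 3 WT and 3 Npc1-/- mice, with poly(A) selection and paired-end sequencing. The authors deposited TPM and FPKM per gene, FPKM being TPM times a factor per sample. The methods name bbduk, STAR, GRCm38 and featureCounts, and the submitters' processing notes list cutadapt 2.3, FastQC 0.11.8, STAR 2.7.8a, RSEM 1.3.3 and MultiQC 1.7. Which of these made the TPM values, and the use of strand, is not given in the sources used here. Without counts, DESeq2, which the authors used, could not be run.

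TPM was divided by median-of-ratios size factors (0.727 to 1.30, from 18690 genes detected in all 6 samples). After adding a pseudocount of 0.5, limma 3.58.1 (R 4.3.3) was run on the log2 values of the 15245 genes whose mean TPM reached 0.5 (eBayes with trend, two-sided, genotype as the only factor). The limits for a call, 0.05 for the adjusted p and 0.1 for the size of the log2 fold change, were those of the authors. The fit was tested on simulated data. Depth came from the steps of low FPKM values, of which 82.1 to 86.5% came to whole fragments to within 0.15, where 30.0% would without steps. Errors given as SD are the spread between mice. Those given as SE, and the intervals, are from limma, which draws the variance of each gene toward a trend over all genes tested. Genes were placed with GENCODE M21, where 55227 of 55492 identifiers were found.

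The rule for the 27 genes uses names only, but they and the other lists were chosen with earlier results of these data known. Every member is accounted for by role; those called, those whose genotypes do not overlap, and the highest and lowest of each role get each sample's value, and of the other peroxisome genes those called and the 3 largest non-overlapping differences are named. The alternatives were TPM as deposited, quantile normalization, FPKM, pseudocounts of 0.1 and 1, no filter, a mean TPM of at least 5, no trend, a robust fit, the replicate number as a block, removal of a transcript length curve, and leaving out each sample. Some of the other peroxisome genes are counted but not reported here by name.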

Additional observations from a re-analysis of the deposited data

How the results depend on the processing

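None of the 27 genes was called under 16 of 17 alternatives, and 1, Scp2, was called with quantile normalization. The count over all genes was 924 on TPM as deposited (54 higher and 870 lower, against 61 and 63), 239 with quantile normalization (96 higher and 143 lower), 21 with no filter, 447 at a mean TPM of at least 5 and 42 with no trend. With 1 sample left out it ran from 5 (without Npc1-/- replicate 2) to 477 (without Npc1-/- replicate 3), and was 20, 13 and 8 without WT replicates 1, 2 and 3 and 19 without Npc1-/- replicate 1. Members without overlap numbered 5 to 8 with 1 sample left out, the 8 (29.6%, against 42.9% of all genes) without Npc1-/- replicate 1, and the share over all genes was higher in each case (32.5 to 42.9%). The replicate numbers occur in both genotypes but come from different mice. Deviations of same-numbered samples correlated at 0.414, 0.0602 and 0.326, a hint from the data and not the design. Every sample correlated best with its own number, but for Npc1-/- replicate 2 the correlation with WT replicate 3 was nearly as high (0.0548). The deviations are from the mean of 3 mice, so these correlations are not independent of each other. With a replicate block in the fit, 2011 genes (13.2% of all genes tested) and 0 members were called. So were 3 other peroxisome genes (Tmem189, Nudt19 and Fis1), 5.36% of those tested, a smaller share than over all genes.

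On TPM as deposited all 27 log2 fold changes were below 0: the median was -0.3681 (all genes -0.326), and -0.2861 for the other peroxisome genes, of which 1 (Ppara) was called. Ppara had passed the filter through the WT mice alone. The signs that changed were those of Pex2 (-0.2609), Pex3 (-0.2409), Pex5 (-0.2762), Pex7 (-0.3256), Pex14 (-0.2139), Pex16 (-0.0068), Pex11a (-0.2951), Pex11g (-0.1201), Acaa1a (-0.2048), Phyh (-0.2889), Gnpat (-0.2454), Far1 (-0.3578), Cat (-0.2785) and Tmem189 (-0.0212). Quantile normalization changed the signs of Pex6 (0.013), Pex10 (0.0077), Pex13 (0.0109), Far1 (-0.022) and Cat (-0.0149), and removal of the length curve those of Pex6 (0.0141), Acox3 (0.0028), Phyh (-0.0175) and Agps (0.052), with a median of -0.0032 for the other peroxisome genes. That median ran from -0.011 (without Npc1-/- replicate 3) to 0.0713 (without WT replicate 3) with 1 sample left out. Leaving out 1 sample also changed signs of Pex6 (-0.0537 to 0.0331), Pex7 (-0.0167 to 0.0895), Pex10 (-0.1087 to 0.0556), Pex13 (-0.0992 to 0.0516), Pex19 (-0.0335 to 0.0237), Pex11a (-0.0809 to 0.1736), Pex11g (-0.0485 to 0.2837), Acox3 (-0.1043 to 0.0264), Hsd17b4 (-0.0329 to 0.0257), Ech1 (-0.1325 to 0.0412), Phyh (-0.0359 to 0.236), Agps (-0.1427 to 0.0156) and Far1 (-0.0811 to 0.1129). The cause of these shifts was not tested. The median of the 27 genes, -0.0072, was near 0 and turned positive with quantile normalization (0.0077), a mean TPM of at least 5 (0.0013) and removal of the length curve (0.0035), and ran from -0.022 to 0.016 with 1 sample left out.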
